A study of Mus musculus with 3 samples.

Results

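The Cxcl9, Cxcl10 and Cxcl11 locus of mouse chromosome 5 was examined in ChIP-Seq data for Ser5-phosphorylated RNA polymerase II (Pol_II). The members were chosen by name and not by a rule on measured values, but with earlier results of these data known. They are the 3 chemokine genes Cxcl9, Cxcl10 and Cxcl11 and the 3 neighbours Sdad1, Art3 and Nup54. This makes 6 of the 37252 genes of the GENCODE M1 annotation counted here. Every Ser5 peak between the outermost gene ends was taken as well. Of the deposited peaks, 7 of 53524 from untreated cells and 24 of 49438 from LPS-treated cells lay in this interval, chr5:92713036-92864245 of the mm9 build (151210 bp). The cells were primary macrophages grown from bone marrow of female Fvb mice (Fvb/Hsd in the methods of the study) in medium conditioned by L929 cells. They give 3 libraries: Ser5 chromatin of untreated cells, Ser5 chromatin after 2 h with lipopolysaccharide (LPS, 10 ng/ml), and input DNA of untreated cells, that is, chromatin sequenced without an antibody. The labels and the text of the study give LPS alone for the stimulated Ser5 library, whereas a track in one of its figures is marked as LPS with γIFN, that is, interferon gamma, which itself induces these chemokines. LPS below means the stimulated library as labelled, and which of the 2 treatments it received could not be settled here. An input of stimulated cells was not analysed here. Each condition had 1 library, so nothing measures the spread between cultures and no test was made. How many mice contributed to a library is not given in the labels.

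Cxcl9, Cxcl10 and Cxcl11 are small secreted proteins that attract activated T cells and natural killer cells through the receptor Cxcr3. They are textbook interferon-inducible genes, and in macrophages LPS acts on them through Toll-like receptor 4, the kinases and interferon regulatory factors downstream of it, NF-kB, and the interferon that the cells secrete. Phosphorylation of serine 5 in the tail of the large Pol_II subunit accompanies the start of transcription, and the mark is also found along transcribed genes, so tag density over a gene is a measure of engaged polymerase and not of mRNA. In a mixed culture, more cells with polymerase on a gene and more polymerase per cell cannot be told apart.

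The genes lie in the order Sdad1, Cxcl9, Art3, Cxcl10, Cxcl11 and Nup54. Sdad1 (chr5:92713036-92739050), Cxcl9 (chr5:92750357-92757105), Cxcl10 (chr5:92775664-92777915), Cxcl11 (chr5:92788570-92794511) and Nup54 (chr5:92844566-92864245) are on the minus strand. Art3 (chr5:92760853-92843654) is on the plus strand, has 21 annotated transcripts and contains all of Cxcl10 and Cxcl11 on its opposite strand. ChIP tags do not tell which strand was transcribed, so Art3 was measured outside Cxcl10 and Cxcl11 and outside 1 kb on either side of each. Cxcl11 is annotated as a processed transcript with 2 starts of interest: its outermost start at 92794511 and the start of transcript Cxcl11-201 at 92792303, 2208 bp further along the gene.

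The promoters of the 3 chemokine genes are shown because Ser5 after LPS differed widely between these genes. Each line is the 250 bases before an annotated start, read 5′ to 3′ on the strand of the gene from the mm9 reference genome. Capitals mark matches, on either strand, to a TATA box (TATAAA), the core of an interferon-stimulated response element or ISRE (GAAANNGAA), the NF-kB consensus, a STAT-type palindrome (TTCNNNGAA) or an AP-1-type site (TGANTCA). A match is a run of letters and not evidence that a factor was bound.
Cxcl9, before 92757105 (chr5:92757106-92757355, minus strand): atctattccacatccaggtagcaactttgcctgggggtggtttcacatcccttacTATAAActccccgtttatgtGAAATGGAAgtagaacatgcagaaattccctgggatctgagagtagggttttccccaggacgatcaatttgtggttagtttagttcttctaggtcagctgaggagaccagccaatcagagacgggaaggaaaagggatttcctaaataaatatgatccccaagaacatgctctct
Cxcl10, before 92777915 (chr5:92777916-92778165, minus strand): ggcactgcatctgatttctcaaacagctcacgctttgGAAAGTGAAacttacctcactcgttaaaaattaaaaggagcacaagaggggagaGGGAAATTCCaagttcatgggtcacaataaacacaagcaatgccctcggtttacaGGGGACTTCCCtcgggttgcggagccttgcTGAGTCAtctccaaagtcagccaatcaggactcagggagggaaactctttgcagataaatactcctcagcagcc
Cxcl11, before the Cxcl11-201 start 92792303 (chr5:92792304-92792553, minus strand): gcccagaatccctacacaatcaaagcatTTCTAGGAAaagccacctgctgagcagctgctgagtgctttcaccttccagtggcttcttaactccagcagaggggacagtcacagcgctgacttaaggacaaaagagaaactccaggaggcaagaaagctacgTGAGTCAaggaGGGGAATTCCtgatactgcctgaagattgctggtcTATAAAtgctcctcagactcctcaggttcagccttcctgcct

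In the window of 250 bases before to 50 after the start, which was the window searched, Cxcl10 held an ISRE core at -213, NF-kB matches at -159, -104 and -103, of which the matches at -104 and -103 overlap by all but a single base, and an AP-1-type match at -74. Cxcl11-201 held a TATA box at -42, an NF-kB match at -77, an AP-1-type match at -88 and a STAT-type match at -222. Cxcl9 held a TATA box at -195, an ISRE core at -175 and an AP-1-type match at 32. The outermost Cxcl11 start and Nup54 held none of these letters, Sdad1 held a TATA box at -168 and an ISRE core at -194, and Art3 held TATA box letters at -245, -243 and -163, the first of them on the opposite strand and overlapping the next. Of 22350 protein-coding promoters of the same length, 13.4% held the TATA box, 8.93% the ISRE core, 8.89% the NF-kB consensus, 7.94% the STAT-type and 6.93% the AP-1-type letters. CpG dinucleotides numbered 10 in the Cxcl10 window, 4 in Cxcl9, 3 in Cxcl11-201, 14 in Nup54 and 15 in Sdad1, against a median of 11 over all coding promoters.

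After LPS the locus was dominated by Cxcl10. Tags in the whole interval numbered 957 in untreated Ser5, 8547 in Ser5 after LPS and 753 in input, from 7616771, 6249819 and 7533308 usable tags. Densities below are tags per 1000000 usable tags (TPM) and per kb, and intervals in parentheses are exact 95% intervals that cover counting error only. On this scale the interval went from 0.831 (0.779 to 0.885) to 9.04 (8.85 to 9.24), a ratio of 10.9 (10.2 to 11.6), with input at 0.661 (0.615 to 0.710). Cxcl10 held 5.75% of the interval's untreated Ser5 tags and 47.0% of those after LPS.

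**Figure D1:**
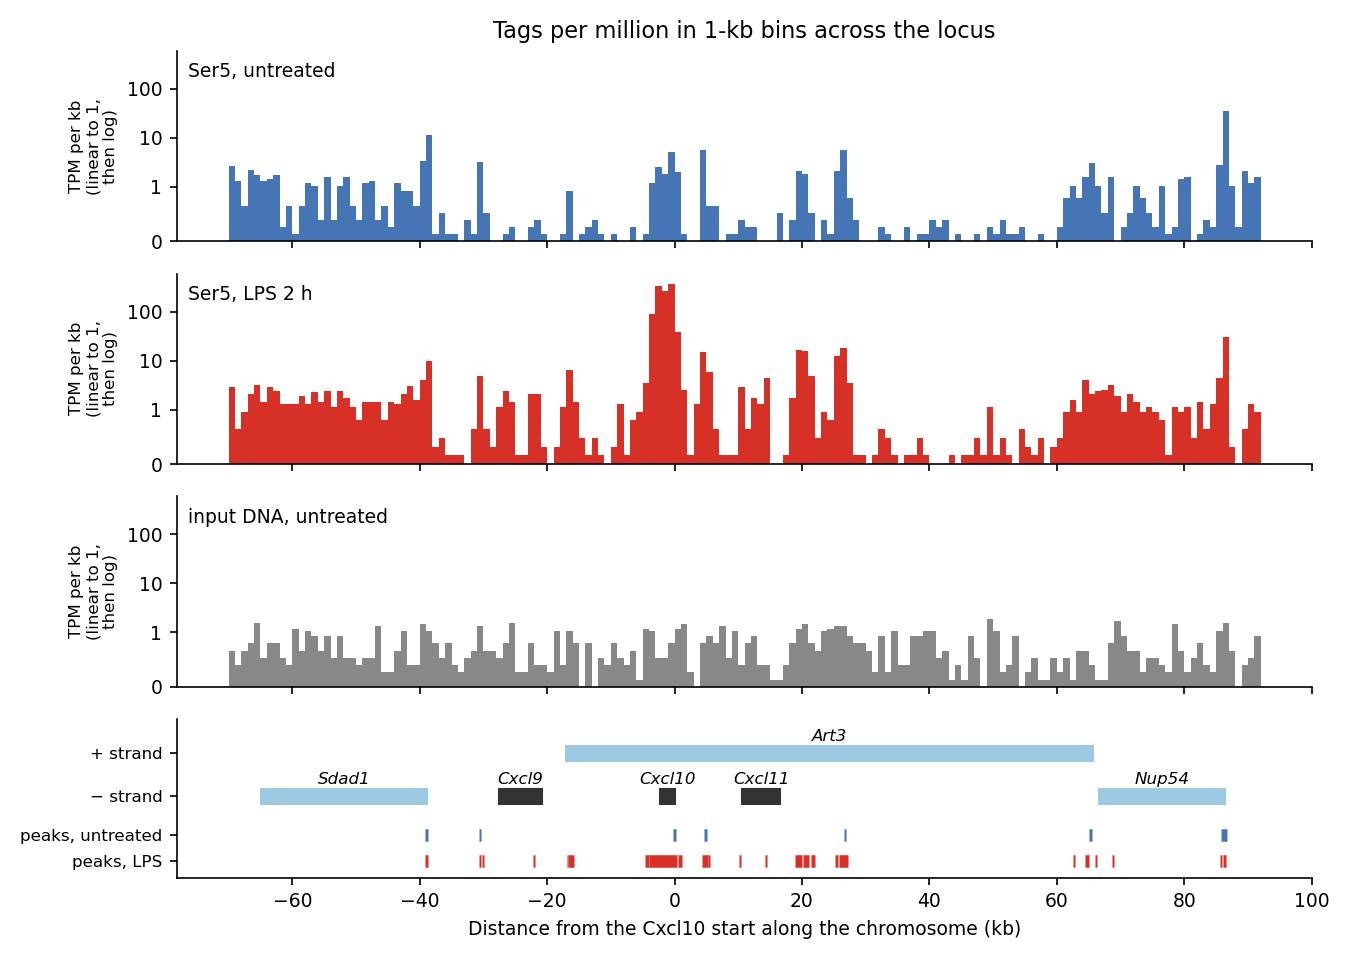
TPM in 1-kb bins (linear up to 1, logarithmic above) against distance from the Cxcl10 start along the chromosome, for the 3 libraries, over a map of the genes by strand (chemokines dark, neighbours light) and of the deposited Ser5 peaks. After LPS the bins at and just left of the Cxcl10 start reach 373 TPM per kb, whereas input stays low across the locus and the starts of Sdad1 and Nup54 stand out in both Ser5 libraries.

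Cxcl10 lies in the middle of the locus. Its body (2252 bp) had 55 tags in untreated Ser5, 4019 in Ser5 after LPS and 13 in input. These counts are densities of 3.21 (2.42 to 4.17), 286 (277 to 295) and 0.766 (0.408 to 1.31) TPM per kb. The LPS to untreated ratio was 89.1 (68.3 to 118), and already in untreated cells the density was 4.18 (2.26 to 8.35) times input. A gene was called higher or lower when its Ser5 density differed at least 2 times between the libraries and it had at least 10 tags in both Ser5 libraries together. Of 20612 gene bodies with that many tags, 6.31% were called higher and 12.3% lower, and the median ratio was 0.871. Cxcl10 ranked at 5 by this ratio and at 12 by its density after LPS.

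The signal covered Cxcl10 from its start to beyond its annotated end. In the 2001 bp around the start the tags numbered 54 and 2571 (ratio 58.0, 44.3 to 77.5), where 6.84% of 16355 start windows were called higher. Beyond the first 1 kb of the body the ratio was 128 (78.7 to 225). The first 1 kb past the 3′ end held 22 and 2431 tags, with 2 in input. At 389 TPM per kb after LPS, this stretch was 1.36 (1.29 to 1.43) times as dense as the gene body itself. The second 1 kb past the end held 4 and 177 tags, 0.0728 (0.0621 to 0.0848) times the density of the first, and the third held 1 and 12. The 250 bp from 2000 to 2250 bp past the start, the last of the gene, had 61 tags after LPS, between 407 in the window before and 706 in the window after. A single deposited peak of 4353 bp (chr5:92773895-92778247) took in the gene and its 3′ flank after LPS, with 92 untreated and 6824 LPS tags, whereas the untreated peak (chr5:92777641-92778100) covered 460 bp at the start.

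Cxcl9 and Cxcl11 had far less Ser5 than Cxcl10, and their bodies were below input in untreated cells. Cxcl9 (6749 bp) had 8 tags in untreated Ser5, 57 after LPS and 31 in input. Its density went from 0.156 (0.0672 to 0.307) to 1.35 (1.02 to 1.75) TPM per kb, a ratio of 8.68 (4.12 to 21.1), with input at 0.610. Cxcl11 (5942 bp) had 6, 56 and 22 tags. Its density went from 0.133 (0.0487 to 0.289) to 1.51 (1.14 to 1.96) TPM per kb, a ratio of 11.4 (4.91 to 32.3), with input at 0.491. Both were called higher and ranked at 75 and 54 by their ratios, although after LPS they were only 2.22 (1.41 to 3.55) and 3.07 (1.84 to 5.28) times input. After LPS the Cxcl10 body was 211 (163 to 280) times as dense as Cxcl9 and 189 (146 to 251) times as dense as Cxcl11, and Cxcl11 against Cxcl9 gave 1.12 (0.758 to 1.64), which spans 1.

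Within Cxcl11, 30 tags after LPS lay within 1 kb of the start of transcript Cxcl11-201 and 1 within 1 kb of the outermost start, where the body held 56 in all. The window of 1 kb on each side of the outermost start had 4 tags in untreated Ser5, 1 after LPS and 3 in input, too few for a call. The same window at Cxcl11-201 had 0, 30 and 4 tags. Against the floor of 3 tags that a count of 0 allows, Cxcl11-201 was at least 12.2-fold higher after LPS. A deposited LPS peak of 283 bp (chr5:92792112-92792394) covered that start, with 0 and 20 tags, next to the TATA box shown above. Within Cxcl9 the window around the start had 3 and 9 tags (ratio 3.66, 0.912 to 21.0), and the deposited LPS peak of the gene (chr5:92755737-92755943) overlapped an exon 1265 bp from the start, with 1 and 6 tags. Its score was 51.6, the lowest in the locus, on a scale where the score is -10*log10 of the MACS p-value.

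**Figure D2:**
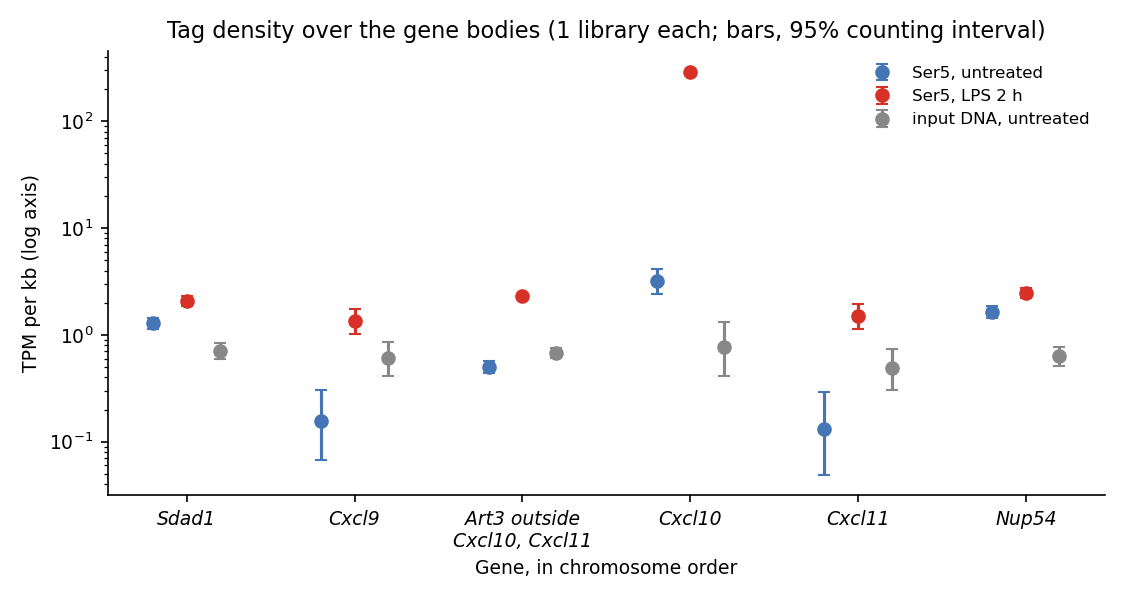
Tag density over each gene body (TPM per kb, log axis) in chromosome order, for the 3 libraries. Points are single libraries and bars are exact 95% counting intervals, and Cxcl10 after LPS at 286 TPM per kb stands above every other point, while Cxcl9 and Cxcl11 lie below input when untreated.

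**Figure D3:**
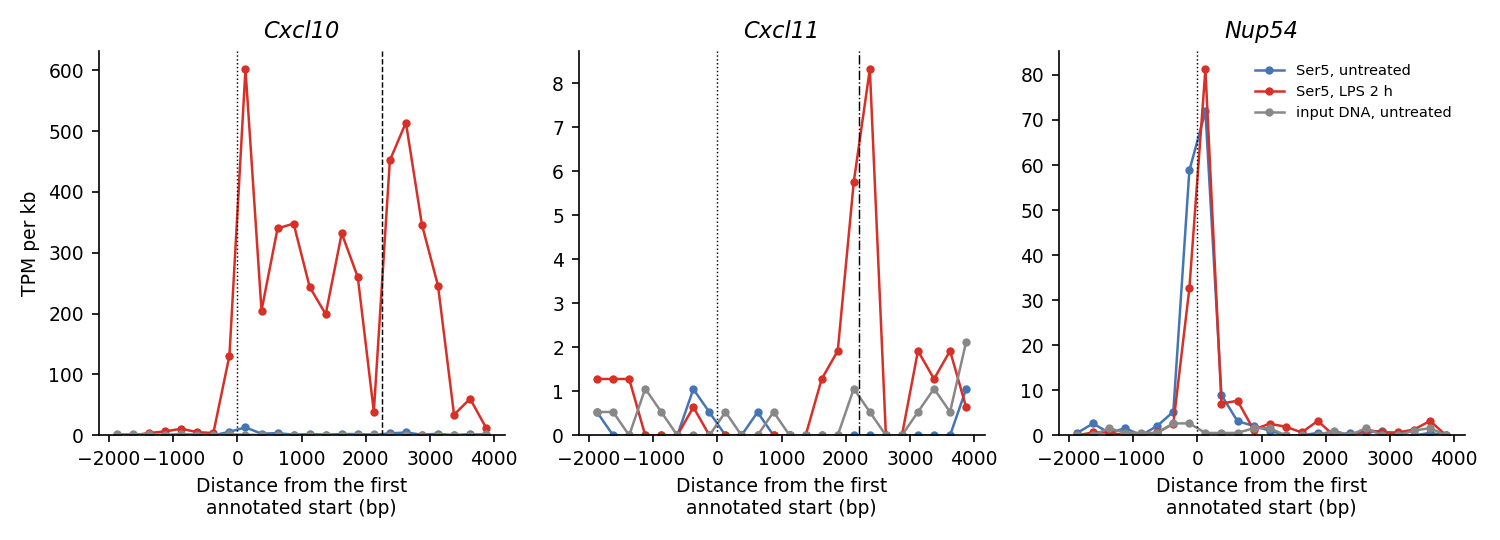
Tag density in 250-bp windows (TPM per kb) against distance from the first annotated start for Cxcl10, Cxcl11 and Nup54, each panel with its own linear axis. Dotted lines mark the first start, the dashed line the Cxcl10 3′ end and the dash-dotted line the Cxcl11-201 start, around which 30 tags after LPS lie, and both Ser5 lines peak at the Nup54 start.

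The neighbours on the outside of the locus, Sdad1 and Nup54, had Ser5 in both conditions. Sdad1 is the mouse counterpart of a yeast ribosome biogenesis factor, and Nup54 is a subunit of the nuclear pore. Sdad1 had 255 untreated, 336 LPS and 138 input tags over its body, a ratio of 1.61 (1.36 to 1.90). Nup54 had 248, 302 and 94 tags, a ratio of 1.48 (1.25 to 1.76). Neither was called, and together they gave 503 and 638 tags, a ratio of 1.55 (1.37 to 1.74), against 69 and 4132 tags and 73.0 (57.5 to 94.0) for the 3 chemokine genes together. With Art3 outside the chemokines added, the neighbours gave 773 and 1647 tags, a ratio of 2.60 (2.38 to 2.83). The pooled chemokine ratio rests on Cxcl10, which holds 4019 of the 4132 LPS tags. Taken by themselves, Cxcl9 and Cxcl11 have ratios whose intervals overlap that of Art3 outside the chemokines, 4.55 (3.98 to 5.23), and lie above those of Sdad1 and Nup54. That Art3 value includes the second 1 kb past the Cxcl10 end, with 4 and 177 tags. Whether the intervals overlap without that stretch was not computed. Of the parts of Art3 that lack it, the part beyond Cxcl11 gave 3.62 (3.08 to 4.29), which overlaps the interval of Cxcl9 but not that of Cxcl11. The part between Cxcl10 and Cxcl11, with the 1 kb next to each gene included, gave 6.75 (5.26 to 8.77), which overlaps both.

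Sdad1 and Nup54 had more Ser5 after LPS along their bodies, while the ratios at their starts spanned 1. At the Nup54 start, 1 kb on each side, the tags numbered 290 and 209, a ratio of 0.878 (0.732 to 1.05). Beyond the first 1 kb of its body they numbered 84 and 150, a ratio of 2.18 (1.66 to 2.88), with 88 in input. At the Sdad1 start they numbered 111 and 84 (0.922, 0.686 to 1.24), and beyond the first 1 kb 164 and 259 (1.92, 1.58 to 2.36), with 129 in input. The median ratio of all start windows was 0.837, below both start values. Of 16444 protein-coding bodies beyond their first 1 kb, 6.53% were called higher, and the median ratio was 0.886. By this measure Nup54 was called and Sdad1 lay just under 2, and both intervals span 2. The Nup54 body includes the start of transcript Nup54-007, whose window held 10 and 33 tags (4.02, 1.94 to 9.15). That window lies wholly within the stretch counted. The Nup54 ratio without it was not computed, so whether Nup54 would still be called is not known.

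The density at the start relative to the body beyond 1 kb went from 32.2 (25.2 to 41.6) to 13.0 (10.5 to 16.2) in Nup54 and from 8.46 (6.59 to 10.8) to 4.05 (3.13 to 5.20) in Sdad1. In input the same quotient was 1.91 (1.08 to 3.20) and 1.65 (0.931 to 2.74). Over 9103 coding genes with at least 50 Ser5 tags in each part, the median quotient was 11.1 untreated and 10.5 after LPS. It was lower after LPS in 56.2% of these genes and at least 2 times lower in 5.50%, as in both members. In Cxcl10 it went from 2.11 (1.19 to 3.95) to 0.956 (0.898 to 1.02).

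**Figure D4:**
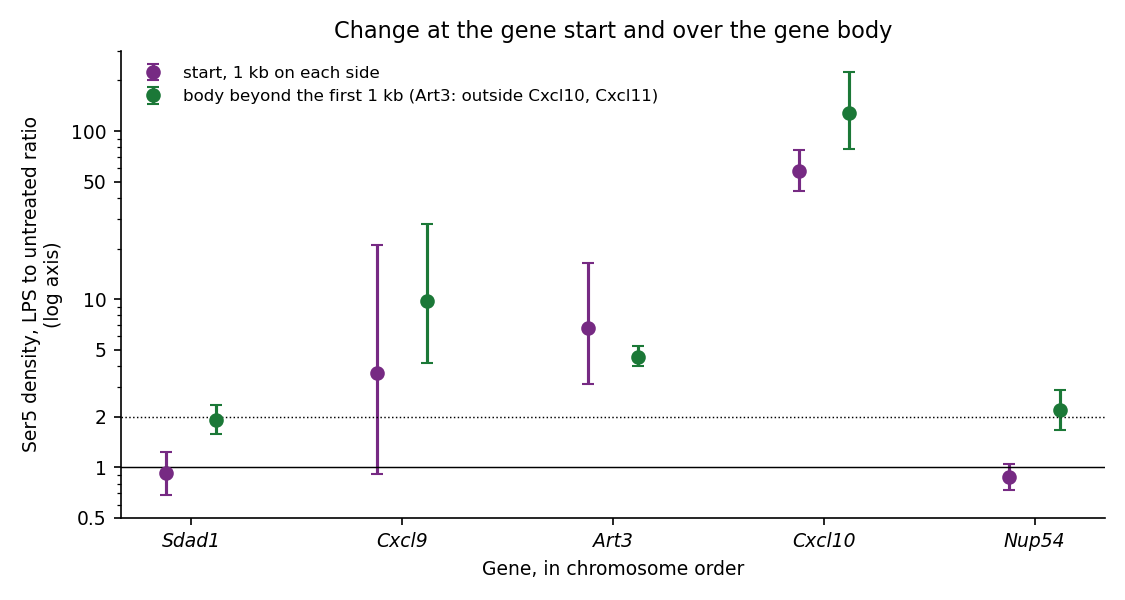
LPS to untreated ratio of Ser5 density (log axis) at the gene start and over the body beyond the first 1 kb for 5 genes. The Art3 body is the part outside Cxcl10 and Cxcl11, with its own first 1 kb included. Bars are exact 95% counting intervals, the solid line marks 1 and the dotted line 2, and the start ratios of Sdad1 (0.922) and Nup54 (0.878) lie below their body ratios (1.92 and 2.18).

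Art3, a member of the ADP-ribosyltransferase family, had 374 untreated, 7763 LPS and 411 input tags over its whole length, a ratio of 25.3 (22.8 to 28.1) that was mostly Cxcl10. Outside the chemokines it had 270, 1009 and 359 tags, or 0.502, 2.29 and 0.675 TPM per kb, and the ratio was 4.55 (3.98 to 5.23). Its start window had 8, 44 and 10 tags (ratio 6.70, 3.12 to 16.5). The part outside the chemokines includes the second 1 kb past the Cxcl10 end, which held 4 and 177 tags (53.9, 20.7 to 200). No ratio was computed without it. This part of Art3 holds 15 peak regions or parts of regions, among them the far end of the 4353-bp Cxcl10 peak. They took up 9719 of its 70608 bp and held 196 and 846 of the 270 and 1009 tags, a ratio of 5.26 (4.50 to 6.18). Outside peak regions the tags numbered 74, 163 and 273, so that Ser5 was below input in both conditions (0.268 and 0.720 times). The last 37143 bp of Art3, beyond 12 kb upstream of Cxcl11, had 84 and 105 tags (1.52, 1.13 to 2.05) and was not called.

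After LPS the order of the body densities was Cxcl10 (286), Nup54 (2.46), Art3 outside the chemokines (2.29), Sdad1 (2.07), Cxcl11 (1.51) and Cxcl9 (1.35 TPM per kb). Cxcl10 stood 116 (103 to 131) times above Nup54. Nup54 against Art3 gave 1.07 (0.941 to 1.22) and Art3 against Sdad1 1.11 (0.977 to 1.26), both spanning 1, whereas Sdad1 against Cxcl11 gave 1.37 (1.03 to 1.85). In untreated cells Cxcl10 was 1.94 (1.42 to 2.60) times as dense as Nup54, and Sdad1 was 9.71 (4.40 to 26.7) times as dense as Cxcl11.

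The deposited peaks of both libraries merged into 24 regions, of which 6 were in both lists, 17 in the LPS list alone and 1 in the untreated list alone. Of the untreated peaks in the locus, 6 of 7 (85.7%) overlapped an LPS peak, against 54.3% over the whole untreated list. Of the LPS peaks, 7 of 24 (29.2%) overlapped an untreated peak, against 56.6% over the whole LPS list. Peaks covered 3249 bp untreated and 16772 bp after LPS, and held 55.8% and 92.3% of the Ser5 tags of the interval. Since a region in the LPS list alone was picked for its LPS tags, its ratio is a description: 14 of those 17 regions were called higher, 1 was between and 2 had too few tags. Of the 6 regions in both lists, 3 were called higher (at Cxcl10, between Cxcl10 and Cxcl11, and upstream of Cxcl11) and 3 were between (at the starts of Sdad1 and Nup54 and in the gap between Sdad1 and Cxcl9).

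**Figure D5:**
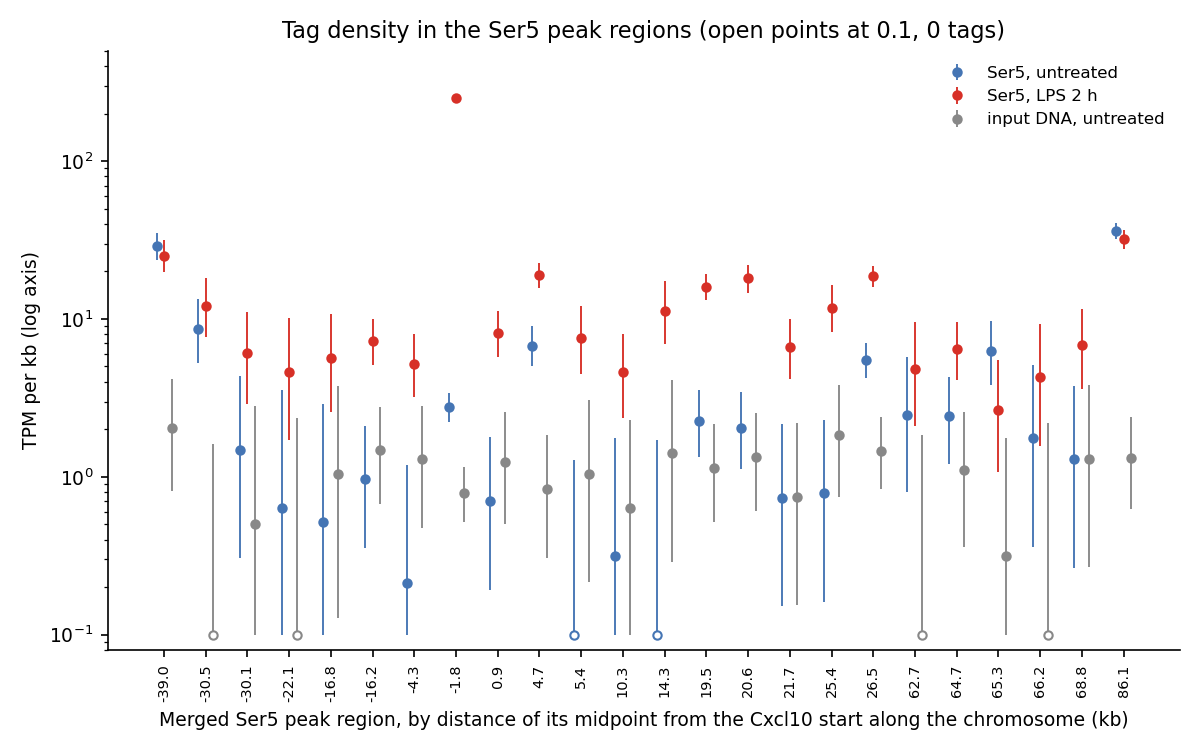
Tag density (TPM per kb, log axis) in the 24 merged peak regions, ordered by distance of the midpoint from the Cxcl10 start along the chromosome in kb, for the 3 libraries with exact 95% counting intervals. Open points stand for 0 tags, and bars that reach below the axis are cut at 0.1. The regions from 4.7 to 26.5 kb are all higher after LPS, and the regions at the starts of Sdad1 (-39.0 kb) and Nup54 (86.1 kb) are nearly level.

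Peaks away from the outermost gene starts already carried Ser5 in untreated cells at 2 places in introns of Art3 near the chemokines. Such a peak also lay in the gap between Sdad1 and Cxcl9 (chr5:92747223-92747527). That region had 20 untreated, 23 LPS and 0 input tags and was not called (1.40, 0.736 to 2.69). The region between Cxcl10 and Cxcl11 (chr5:92782175-92783122), centred 4733 bp upstream of the Cxcl10 start, had 49 untreated, 112 LPS and 6 input tags (ratio 2.79, 1.97 to 3.98), and was 8.08 (3.46 to 23.1) times input when untreated. The region centred 9931 bp upstream of the outermost Cxcl11 start (chr5:92803717-92805168) had 61, 169 and 16 tags (3.38, 2.51 to 4.60), and was 3.77 (2.15 to 7.01) times input when untreated. It ends less than 1 kb before the annotated start of transcript Art3-009 at 92806001. The window of 1 kb on each side of that start held 8 untreated, 16 LPS and 12 input tags. Whether the peak belongs to that start was not tested. The sequences of these 2 regions in Art3 are shown because polymerase was there before treatment. The peak in the gap also had polymerase before treatment, and its sequence is not shown. Each line is the 250 bases around the midpoint of the untreated peak, on the plus strand of mm9, with motif matches in capitals as above.
Between Cxcl10 and Cxcl11 (chr5:92782687-92782936, plus strand): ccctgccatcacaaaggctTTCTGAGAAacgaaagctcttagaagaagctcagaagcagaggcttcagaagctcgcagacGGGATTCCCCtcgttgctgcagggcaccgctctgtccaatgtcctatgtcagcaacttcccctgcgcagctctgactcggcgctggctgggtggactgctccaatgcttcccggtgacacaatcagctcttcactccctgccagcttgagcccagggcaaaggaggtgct
Upstream of Cxcl11 (chr5:92804502-92804751, plus strand): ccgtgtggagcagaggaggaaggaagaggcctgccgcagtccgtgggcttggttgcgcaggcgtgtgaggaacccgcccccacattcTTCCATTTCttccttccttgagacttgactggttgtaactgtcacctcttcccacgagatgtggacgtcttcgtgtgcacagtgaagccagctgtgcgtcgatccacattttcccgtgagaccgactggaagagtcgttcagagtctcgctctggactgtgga

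The first of these held an NF-kB match and a STAT-type match, and the second an ISRE core on the minus strand. A window of the same length at the midpoint of an LPS peak upstream of Cxcl11 (chr5:92798415-92798664) was also searched and held 0 matches. Over windows of this length at the midpoints of all 53467 untreated peaks on chromosomes with usable tags, 6.66% held the NF-kB consensus, 6.02% the STAT-type letters and 6.34% the ISRE core.

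A further 4 regions upstream of Cxcl11 were peaks after LPS alone. The regions at chr5:92796891-92797938 and chr5:92798093-92798987 had 18 and 105 tags (7.11, 4.29 to 12.5) and 14 and 101 tags (8.79, 5.01 to 16.7). The smaller regions at chr5:92799358-92799890 and chr5:92803070-92803570 had 3 and 22 tags and 3 and 37 tags. Together with the region that was already a peak in untreated cells, the 5 peak regions in the 12 kb upstream of Cxcl11 had 99 untreated, 434 LPS and 44 input tags. The whole 12 kb, peaks or not, had 111, 475 and 87 tags, or 1.21, 6.33 and 0.962 TPM per kb. After LPS this stretch was 4.20 (3.18 to 5.64) times as dense as the Cxcl11 body, when untreated 9.16 (4.08 to 25.5) times, and in input 1.96 (1.22 to 3.28) times.

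The study placed PCR primers over this stretch, and tags were counted in windows of 500 bp on each side of the middle of their products. The window at the CXCL11 TSS product, which lies at Cxcl11-201, had 0 untreated, 25 LPS and 3 input tags. The products UPS CXCL11 1 and 2, near the outermost start, had 1 and 0 tags and 3 and 1 tags. The windows at CXCL11 UPS A and CXCL11 P-1 had 13 and 92 (8.62, 4.80 to 16.8) and 14 and 101 tags (8.79, 5.01 to 16.7), with 12 and 11 in input. The window at CXCL11 P-2 had 44, 115 and 10 tags (3.19, 2.23 to 4.62). P-2 differed from P-1 in untreated cells, where it was 4.35 (2.16 to 9.70) times input and P-1 was 1.26 (0.531 to 3.06) times.

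The region peaked in untreated cells alone (chr5:92843010-92843428, an exon at the 3′ end of Art3) had 20 untreated and 7 LPS tags (0.427, 0.152 to 1.05), and its interval spans 1. In the gap between Cxcl9 and Art3 neither peak list has a Ser5 peak, and the gap had 2, 9 and 16 tags. A supplementary list of the study places an induced total Pol_II region there, which held 1 untreated, 8 LPS and 4 input tags, too few for a call. Per the study, the total Pol_II data came from cells given LPS with γIFN. Peaks overlapping known genes were removed from that list, so regions within Art3 cannot be compared in this way.

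Within 200 kb on either side of the locus, 3 of 8 protein-coding genes were called higher and none lower, where 5.83% of all coding bodies were called higher and 11.3% lower. The 3 genes were U90926 (4 and 18 tags, 5.48, 1.81 to 22.3), Ppef2 (33 and 56 tags, 2.07, 1.32 to 3.28) and Stbd1 (14 and 32 tags, 2.79, 1.44 to 5.65). In input they held 11, 154 and 20 tags. Ppef2 was below input in both conditions (0.212 and 0.438 times). After LPS U90926 was 1.97 (0.882 to 4.62) and Stbd1 1.93 (1.07 to 3.56) times input. The nearest on either side, Naaa and Scarb2, which encode a lysosomal amidase and a lysosomal membrane protein, gave 0.868 (0.668 to 1.12) and 1.14 (0.997 to 1.30).

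By Euclidean distance between the log2 densities of the 2 Ser5 libraries, the 5 coding genes most like Cxcl10 were Cxcl1, Rsad2, Saa3, Cxcl2 and Cmpk2, at distances of 0.645, 0.982, 1.54, 1.92 and 2.06. Cxcl1, a neutrophil-attracting chemokine, had 69 and 3997 tags over its body (70.6, 55.7 to 90.9). Rsad2, which encodes the antiviral enzyme viperin, had 205 and 15243 tags (90.6, 79.0 to 105).

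The pathway around these chemokines was read from lists of genes, each by its gene body and against the median of 0.871 over all genes. Of all bodies 6.31% were called higher and 12.3% lower. Of 12 other interferon-inducible genes all 12 were called higher, with a median ratio of 14.2. Their extremes were Ccl5, a T cell chemokine, at 24 and 7803 tags (396, 266 to 619) and Irf7, an interferon regulatory factor, at 534 and 1147 tags (2.62, 2.36 to 2.91). Of the 8 NF-kB genes 7 were called higher (median 4.93), from Tnfaip3, a feedback inhibitor, at 8.33 (7.61 to 9.12) down to Nfkb2 at 2.94 (2.60 to 3.33), and Rela was 1.97 (1.70 to 2.29). Of the 17 genes from Toll-like receptor 4 to interferon signalling 8 were called higher and none lower (median 1.64). Ifnb1, the interferon beta gene, had 3 and 26 tags (10.6, 3.24 to 54.5), and the receptor gene Tlr4 itself gave 0.672 (0.596 to 0.758).

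Of the 6 interferon gamma genes with enough tags 3 were called higher, Jak2 (5.16, 4.55 to 5.87), Irf1 (5.05, 4.59 to 5.56) and Socs1 (4.10, 3.42 to 4.94), and Irf8 was called lower (0.411, 0.369 to 0.456). Ifng, the gene of interferon gamma, had 4 and 5 tags. Of the 10 other CXC chemokine genes with enough tags 6 were called higher, where 6.31% of all bodies were, and Cxcl14 was called lower (74 and 13 tags, 0.214, 0.109 to 0.389). Of those 6, Cxcl5 (5 and 11 tags, 2.68, 0.859 to 9.84) and Cxcl15 (2 and 8 tags, 4.87, 0.973 to 47.1) had intervals that span 1. After LPS Cxcl5 was 1.02 (0.414 to 2.47) and Cxcl15 0.193 (0.0790 to 0.410) times input. Neither gene with enough tags among the receptor and modifying enzymes was called: Cxcr3 had 19 and 11 tags (0.706, 0.303 to 1.56), and Dpp4, a peptidase that trims these chemokines, gave 0.956 (0.649 to 1.40). The atypical receptor gene Darc had 5 and 3 tags, too few for a call.

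The labelled cell type was read from marker genes. Macrophage markers had untreated densities from 1.94 to 105 TPM per kb over 6 matched genes, with Lyz2, the macrophage lysozyme, highest. Of these, 4 were called lower after LPS (Csf1r, Cd68, Lyz2 and Itgam), where 12.3% of all bodies were. Emr1 was called higher (3.01, 2.86 to 3.17), where 6.31% of all bodies were. T cell markers ranged from 0.0726 to 0.195 TPM per kb untreated and fibroblast markers from 0.0757 to 0.265. B cell markers ranged from 0.107 to 0.927 and endothelial markers from 0.276 to 0.768 TPM per kb untreated. Their medians were 0.164 and 0.297, where input had medians of 0.551 and 0.637. The highest were Cd79a, 1.68 (0.940 to 3.08) times input, and Kdr, 0.953 (0.803 to 1.13) times. The B cell marker Ms4a1 had 13 and 34 tags. The part of the marker differences in the values of the locus was not tested.

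Among the member gene bodies, duplicate tags after LPS were most frequent in Cxcl10. Its 4019 tags after LPS lay at 2035 distinct positions and strands of 4504 possible, or 50.6% distinct, against 80.0% of its untreated tags and 81.4% of all tags in that library. With 1 tag kept per position and strand, the Cxcl10 ratio was 58.6. The ratio of Art3 from its start to Cxcl10, which holds the Cxcl10 3′ flank, went from 74.7 to 42.1 in the same way. The density of the 3′ flank against the gene body was not computed without duplicates.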

How the data were processed

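ChIP-Seq for Ser5-phosphorylated Pol_II was made once per condition in mouse bone marrow-derived macrophages. Per the study's methods, the authors aligned the tags to mm9 with Bowtie, keeping unique matches, and called peaks on each Ser5 library against the input with MACS (versions not given in the sources used here). The deposited tag files list where each tag aligned and on which strand, duplicates included, and the deposited peak lists hold a score, -10*log10 of the MACS p-value, whose lowest value stands for a p of 1e-05. The deposited tags are 45 bases long in untreated Ser5, 30 after LPS and 36 in input, so fewer positions could be matched uniquely after LPS. The supplementary methods of the study give the reverse, 30 bases kept for untreated and 45 for LPS. The conditions here follow the labels of the files, and the mismatch could not be settled. The file of notes and, among the study's supplementary tables, all but the primer sequences and the positions of total Pol_II regions were not used.

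The 5′ end of each tag on chromosomes 1 to 19 and X was counted in gene bodies and in 1 kb on each side of the start (GENCODE M1, on the NCBIM37 genome, the same build as mm9) with Python 3.11.15, numpy 2.4.6 and scipy 1.17.1. Deposited positions were read as 1-based with both ends included, and an offset of a single base could not be told from the files. Usable tags numbered 7616771, 6249819 and 7533308, so 1 tag in a 1-kb window is 0.131, 0.160 and 0.133 TPM per kb. Intervals are exact (Poisson for densities, conditional binomial for ratios) at 95% and cover counting error only, since reads carry no molecular identifiers. In calls of higher or lower, a count of 0 stood at 0.5 tags, and a fold against 0 tags used a floor of 3 tags. The calculations were tested on simulated counts. Pathway and marker lists, members and rules were chosen with earlier results of these data known. The genes named are the members, the 5 coding genes most like Cxcl10, flanking genes within 200 kb, and at most 6 genes per list with the largest or smallest ratios. Of those lists, Ackr1 and Spi1 did not match by these symbols; Ackr1 was read under its older symbol Darc.

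Alternatives were a single tag kept per position and strand, 5′ ends shifted by 75 bp towards the fragment centre, scaling to tags outside peaks, other parts of a gene body or starts, 500 bp around starts, positions unique at 30 bases, a peak score of at least 100, other overlap rules, at least 50 tags, and coding genes alone. The background for bodies beyond the first 1 kb was added after seeing the data.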

Additional observations from a re-analysis of the deposited data

How the results depend on the processing

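Each condition had 1 library, so no result carries a replicate error, and no culture could be left out. No paired analysis was possible because no replicate exists in any condition. Of 139 alternative values of LPS to untreated ratios, 124 moved by less than the counting interval, 14 moved further and 1 was reversed. With 1 tag per position and strand the ratio was 58.6 for Cxcl10, 16.7 for the whole of Art3 and 47.2 for the 3 chemokine genes. Without the first 1 kb of the body it was 128 for Cxcl10, 1.92 for Sdad1 and 2.18 for Nup54, so that Nup54 passed 2. The Nup54 interval (1.66 to 2.88) spans 2, and the stretch includes the Nup54-007 start. Without Cxcl10 and Cxcl11 Art3 gave 4.55. At the start of transcript Art3-018, with 2 and 1 tags, the ratio was 0.609, the reverse of the outermost start. LPS peaks with a score of at least 100 numbered 14 of 24. With at least 50 tags, 816 bodies were called higher, and 508 start windows were called higher and 1404 lower. Among coding genes alone 700 start windows were called higher. For windows with 0 untreated tags no alternative ratio was computed. Cxcl9, Cxcl11 and the upstream regions each rest on fewer than 200 tags per library, and smaller differences there were not detectable at this depth.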
